A study of Mus musculus with 36 samples.

Results

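Transcription factor genes that direct the choice between progenitor, granulocyte, monocyte and macrophage fates were followed through osteoclast formation in mouse cells with and without a lesion of Irf8. The genes were Spi1, Cebpa, Cebpb, Cebpd, Cebpe, Gfi1, Klf4, Myb, Myc and Runx1, taken by name from the deposited expression table, and they are 10 of its 24950 genes. All 10 passed the filter on low values that left 11863 genes for testing. RNA was sequenced from bone marrow-derived macrophages (BMMs) of C57BL/6 mice of both sexes, labelled gWT, gKO, cWT or cKO for Irf8. Day 0 cells were BMMs kept in the growth factor M-CSF, day 3 cells were pre-osteoclasts and day 6 cells were mature osteoclasts, the last 2 stages under M-CSF at 20 ng/ml with the osteoclast-inducing cytokine RANKL at 40 ng/ml. Each of the 12 combinations of genotype and day had 3 libraries, 36 in all. The labels do not spell out g and c, the altered part of Irf8, any Cre driver, pooling of animals, or whether the 3 libraries of a group were separate cultures. The error behind each p-value comes from the scatter of libraries within their groups, pooled for each gene over all 12 groups. It is thus not the scatter of the compared libraries alone, and part or all of it could be technical. The g pair and the c pair each have their own wild type, and the pairs were not compared with each other directly.

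As background, PU.1, the product of Spi1, is required for myeloid cells and for osteoclasts, and RUNX1 is a blood stem and progenitor factor that acts upstream of it. C/EBP-alpha starts the granulocyte and monocyte programme, C/EBP-epsilon and the repressor GFI1 drive granulocyte maturation, and KLF4 favours monocytes. MYB maintains progenitors, and MYC drives ribosome building, nucleotide synthesis and growth. IRF8 works with PU.1 to turn progenitors toward monocytes and away from granulocytes, and its level falls during normal osteoclast formation.

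A promoter window is shown for each of the 2 members with the widest range of levels, Myb and Gfi1. For Gfi1 it is the first of 2 windows. A window is also shown for Klf4, which rose to day 3 in gWT and fell in the other genotypes. Each window runs from 250 bases before to 50 bases after a transcript start. The windows were read from RefSeq on build GRCm38.p6, whose coordinates are not those of the mm9 build used for the expression values. Capitals mark matches to the motifs searched, and all 3 genes lie on the minus strand.
Myb (chr10:21160935-21161234): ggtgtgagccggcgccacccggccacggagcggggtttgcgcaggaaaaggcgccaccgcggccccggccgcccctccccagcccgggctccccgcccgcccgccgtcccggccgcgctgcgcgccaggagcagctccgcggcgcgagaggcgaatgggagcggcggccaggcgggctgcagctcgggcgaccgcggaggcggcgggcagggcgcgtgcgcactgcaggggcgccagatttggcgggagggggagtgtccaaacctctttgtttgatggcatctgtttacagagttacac
Gfi1 (chr5:107725756-107726055): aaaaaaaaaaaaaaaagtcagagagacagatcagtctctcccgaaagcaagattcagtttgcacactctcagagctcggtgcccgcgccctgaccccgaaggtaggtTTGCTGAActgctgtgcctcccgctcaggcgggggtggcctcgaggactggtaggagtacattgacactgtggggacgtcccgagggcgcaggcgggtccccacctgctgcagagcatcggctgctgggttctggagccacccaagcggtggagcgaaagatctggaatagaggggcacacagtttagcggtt
Klf4 (chr4:55532426-55532725): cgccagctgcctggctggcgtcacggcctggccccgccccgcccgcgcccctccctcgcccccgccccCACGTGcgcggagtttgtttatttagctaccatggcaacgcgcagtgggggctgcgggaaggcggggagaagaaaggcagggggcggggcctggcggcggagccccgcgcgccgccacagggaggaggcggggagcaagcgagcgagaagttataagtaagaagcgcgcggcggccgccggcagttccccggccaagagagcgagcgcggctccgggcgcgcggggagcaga

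RefSeq windows were at hand for 6 of the 10 members, Cebpa, Cebpb, Gfi1, Klf4, Myb and Runx1, as 8 windows of 300 bases. Both strands were searched for the C/EBP motif TTGCNNAA, the E-box CACGTG that MYC with its partner MAX can bind, the PU.1-type ETS motif GAGGAA, the RUNX motif TGTGGT, the ETS-IRF composite element and the interferon-stimulated response element. Positions are those of a match's first base, negative before the start, and no match overlapped another. Gfi1 held the C/EBP motif at -143 in the first of its 2 windows, and the other held no match. That motif was present in 10.8% of all 32851 windows. Klf4 held the E-box at -182, found in 7.15% of windows. In Runx1, the first of its windows held the E-box at -71 and the RUNX motif on the minus strand at 29 and 37 bases after the start, and the other held the ETS motif at -46. The RUNX motif occurred in 16.8% and the ETS motif in 28.3% of all windows. The windows of Cebpa, Cebpb and Myb held none of these letters, and neither the ETS-IRF composite element (2.72% of all windows) nor the interferon-stimulated response element (3.44%) was in any member's window.

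Irf8 itself was read first as a check of the labels. Its level is given in RPKM (reads scaled to gene length and to the depth of the library). At day 0 it was 61.1 to 66.3 in the gWT libraries against 56.3 to 59.0 in those labelled gKO. At day 3 it was higher in gKO, at 12.2 to 14.6 against 4.96 to 5.95 in gWT. At day 6 the groups overlapped, at 4.71 to 5.22 in gKO and 4.72 to 6.09 in gWT. In the libraries labelled cKO it was above those labelled cWT at day 0 (205.1 to 212.7 against 58.1 to 60.5) and at day 3 (61.9 to 67.5 against 5.29 to 7.06), and below them at day 6 (7.69 to 13.6 against 24.6 to 28.3). Irf8 RNA thus went against the label of a knockout in several groups, and gene-level values cannot tell full transcripts from altered ones, so groups below are libraries labelled with a genotype. Library names start with 1 of 3 letters, read here as the 3 data sets that the file header says were combined. All g libraries shared 1 letter, while on days 0 and 3 the cWT libraries had the letter s and the cKO libraries the letter t, so genotype and data set cannot be told apart within those days. At day 6 the cKO libraries were s, and the cWT libraries were t for replicates 1 and 2 and s for replicate 3. Libraries held 34510144 to 92548145 alignments, and replicates correlated at 0.992 to 0.999 across genes.

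Levels per gene length gave the same leader in every group. Spi1 was the highest of the 10 at 207.7 to 484.1 RPKM (group means), and in 11 of the 12 groups the next place went to Cebpa or Cebpb. The exception was cWT at day 3, where Myc (54.2) stood above both. At day 0, Myb was among the lowest in gWT (2.65) and cWT (4.6) and ranked 5 of 10 in gKO (54.6) and 6 of 10 in cKO (34.2). By day 6, Gfi1 and Myb were the lowest 2 genes in all 4 genotypes, at group means from 0.0294 to 0.286 RPKM. The highest group mean exceeded the lowest by 982-fold for Myb, 590-fold for Gfi1 and 84.3-fold for Cebpe, against 2.33-fold for Spi1 and 2.8-fold for Runx1, and the range was 5.25-fold to 17.1-fold for the other 5 genes. The widest folds rest on day 6 denominators near 0 RPKM, whose counting error is unknown.

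**Figure D1:**
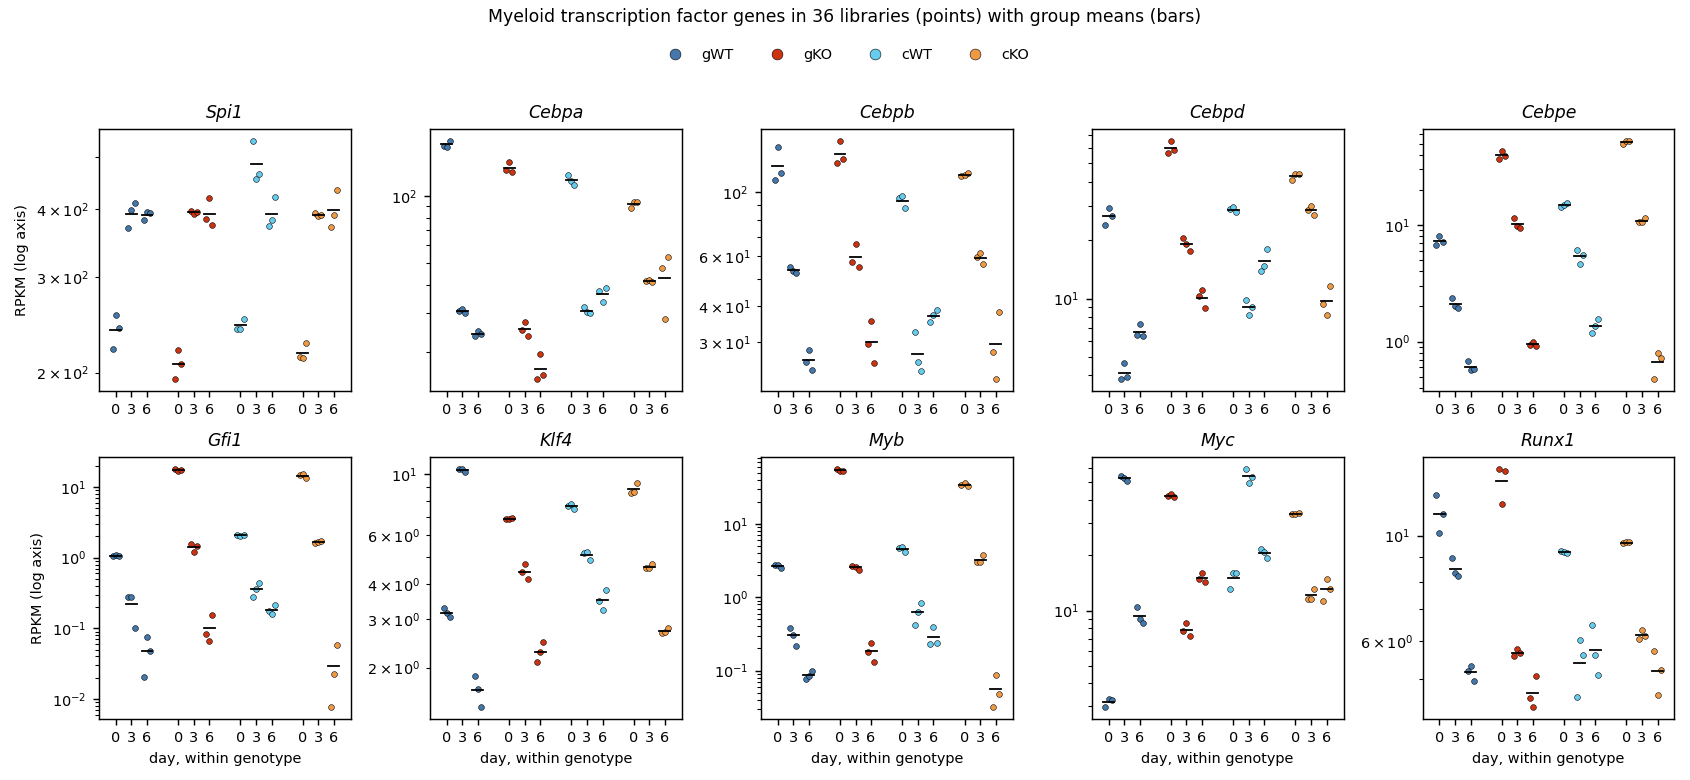
RPKM of each gene on a log axis against genotype and day. Each point is 1 of 36 libraries, and each bar is the mean of the 3 libraries of a group. Gfi1, Myb and Cebpe are high in gKO and cKO at day 0 and low in all genotypes by day 6, and Myc is highest at day 3 in gWT and cWT but at day 0 in gKO and cKO.

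Counts of members that changed were read against the share of all tested genes called at an adjusted p under 0.05 in limma, which was high in every comparison. Against gWT, 9 of 10 members changed in gKO at day 0 (7 higher, 2 lower), beside 78.8% of all genes. At day 3, 7 changed (4 higher, 3 lower), beside 79.1%, and at day 6, 5 changed (4 higher, 1 lower), beside 50%. Between the libraries labelled cKO and cWT, 9 members differed at day 0 (7 higher, 2 lower; 68% of all genes), 10 at day 3 (7 higher, 3 lower; 77%) and 7 at day 6 (all lower in cKO; 53.6%). The number called lay near these shares, so the sizes and directions of single genes carry the comparison. At day 6 a lower level in cKO was common to most called genes, with 1569 of all genes higher and 4788 lower. After quantile scaling 3003 were higher and 2756 lower. The median log2 change of the 10 members in gKO at day 0 was 1.03, against 0.16 over all genes, and in cKO it was 0.43 against 0.03. When 1 library was left out in turn, 7 to 9 members were called for gKO at day 0, 7 to 8 for cKO at day 0, 8 to 10 for cKO at day 3 and 6 to 7 for cKO at day 6. All log2 changes are differences of mean log2(RPKM + 1), which understate folds of low genes, and their errors are limma standard errors with n = 3 per group.

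**Figure D2:**
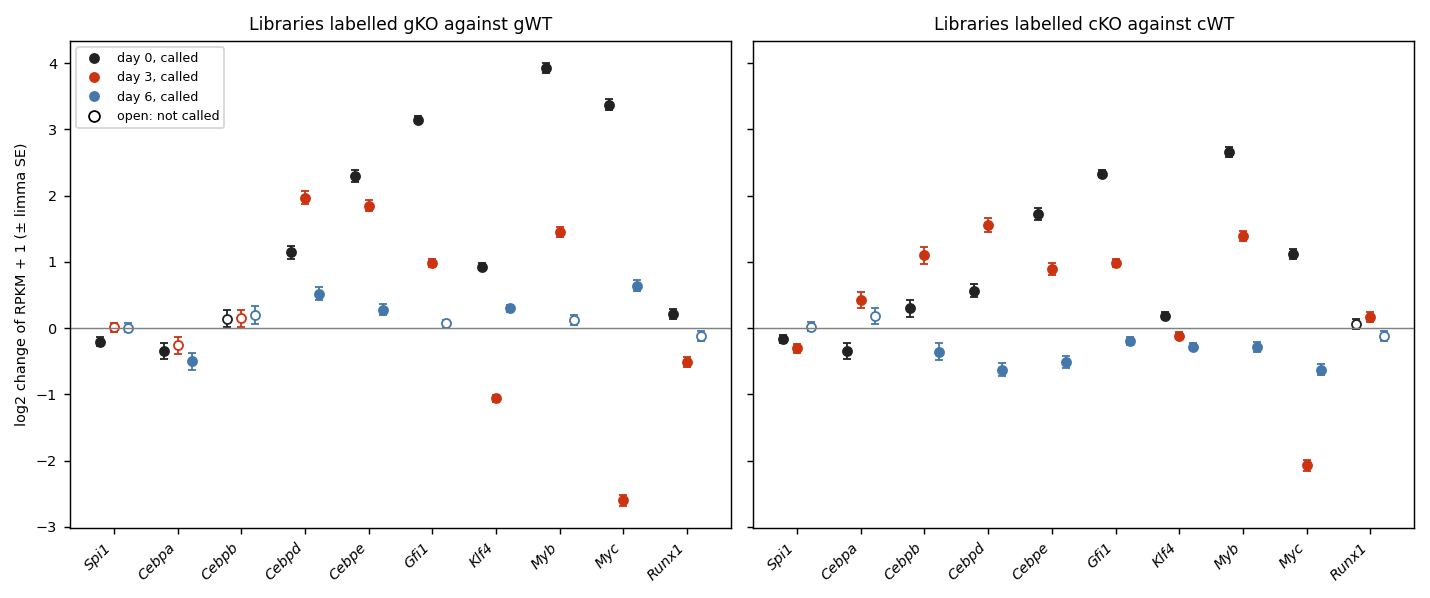
The log2 change of RPKM + 1 between knockout-labelled and wild-type-labelled libraries (left gKO against gWT, right cKO against cWT), by gene and day, with limma standard errors. Filled points were called at an adjusted p under 0.05. Myb, Gfi1 and Cebpe are highest at day 0 in both pairs, and Myc crosses from above 0 at day 0 to below 0 at day 3 in both.

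The granulocyte and progenitor factors Myb, Gfi1 and Cebpe were higher in the knockout-labelled BMMs, and the difference narrowed over the culture. Myb was 2.73, 2.73 and 2.49 RPKM in the gWT libraries of day 0 and 56.9, 53.7 and 53.3 in those of gKO. It was 4.72, 4.92 and 4.16 in cWT and 33.9, 36 and 32.8 in cKO. Every knockout-labelled library thus lay far above every wild-type-labelled one, and the groups did not overlap. The difference was 20.6-fold in gKO (log2 3.93 ± 0.08, limma adjusted p = 9.70e-27) and 7.44-fold in cKO (2.66 ± 0.08, limma adjusted p = 3.21e-22). In gKO, 0.438% of all genes had a larger change, and in cKO 0.396%.

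Gfi1, which encodes a repressor needed for neutrophil maturation, followed the same course. Its day 0 levels were 1.04, 1.11 and 1.05 RPKM in gWT and 18, 16.6 and 17.4 in gKO, and 2.07, 2.04 and 2.08 in cWT and 14.7, 15.2 and 13.4 in cKO. These groups again did not overlap, at 16.2-fold (log2 3.15 ± 0.06) and 7.01-fold (2.33 ± 0.06). Cebpe, the gene of the late granulocyte C/EBP factor, was 6.73, 8.08 and 7.18 RPKM in gWT, 36.8, 43.5 and 39.4 in gKO, 14.3, 14.8 and 15.5 in cWT and 49.2, 52.5 and 52.5 in cKO. Its rise was smaller, at 5.44-fold (2.30 ± 0.09) in gKO and 3.46-fold (1.72 ± 0.09) in cKO.

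At day 3 all 3 of these genes had fallen in every genotype but were still higher in the knockout-labelled libraries. Myb was 0.218 to 0.382 RPKM in gWT against 2.38 to 2.71 in gKO (log2 1.45 ± 0.08), and 0.419 to 0.85 in cWT and 2.99 to 3.75 in cKO (1.39 ± 0.08). Gfi1 differed by 0.98 ± 0.06 in gKO and 0.98 ± 0.06 in cKO. Cebpe was 1.95 to 2.37 RPKM in gWT against 9.37 to 11.5 in gKO (1.85 ± 0.09), and 4.59 to 6.14 in cWT and 10.6 to 11.4 in cKO (0.89 ± 0.09). By day 6, Cebpe was under 1.6 RPKM in every library and Myb and Gfi1 under 0.4. The remaining change in gKO was 0.28 ± 0.09 for Cebpe, called, and 0.12 ± 0.08 for Myb and 0.07 ± 0.06 for Gfi1, not called. The gKO and gWT libraries did not overlap for Myb (2.13-fold), and with the pseudocount of 0.1 its value was 0.59 and was called, while that of Gfi1 was 0.43 and was not.

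The change of the genotype difference with time was tested directly for these genes. Between day 0 and day 3 the gKO difference shrank by 2.47 ± 0.11 for Myb, 2.16 ± 0.08 for Gfi1 and 0.45 ± 0.12 for Cebpe on the log2 scale (limma adjusted p = 9.36e-19, 3.95e-20 and 0.00133). The value for Cebpe was -0.25 after quantile scaling and -0.20 with a pseudocount of 0.1, and neither passed. In cKO the differences shrank by 1.27 ± 0.11, 1.35 ± 0.08 and 0.83 ± 0.12. With the pseudocount of 0.1 the values for Myb and Gfi1 were -1.57 and -1.61 in the g pair and -0.64 and -0.78 in the c pair, all still called, and on the RPKM scale the cKO fold went from 7.44 to 5.16 for Myb and from 7.01 to 4.67 for Gfi1. Over all 10 members, 8 such differences were called between day 0 and day 3 in the g pair (2 higher, 6 lower; 81.8% of all genes), 7 between day 3 and day 6 (3 higher, 4 lower; 74.8%) and 8 between day 0 and day 3 in the c pair (3 higher, 5 lower; 72.9%).

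Granule and maturation genes of the C/EBP and GFI1 programme moved alongside. Of 23 such genes outside the members, 21 were higher and 1 lower in gKO BMMs (median log2 change 2.28, against 0.16 over all genes), and 21 were higher and 1 lower in cKO BMMs (median 2.50, against 0.03). The cathepsin G gene Ctsg rose from 14.2 to 661.5 RPKM in gKO (5.45), the myeloperoxidase gene Mpo from 47.3 to 1686 (5.13), the neutrophil elastase gene Elane from 45.6 to 1619 (5.12) and the proteinase 3 gene Prtn3 from 34.5 to 1207 (5.10). At day 3, 23 were higher in gKO and none lower (median 2.39, against -0.11), now led by the chitinase-like lectin gene Chil3 (4.56) and the calprotectin genes S100a8 (4.05) and S100a9 (3.76). At day 6, 21 were higher and 1 lower in gKO (median 1.22, against 0.00), though Gfi1 and Myb were near 0. The list was chosen with earlier results of these data known, so it is a description.

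Neutrophil markers, all 12 of which are also in the list of 23, were summed to show their level in each group. The summed RPKM of 12 neutrophil markers was 2027 to 2654 in gWT BMMs and 21188 to 26721 in gKO BMMs, and 3459 to 3561 in cWT and 21758 to 23134 in cKO. All 12 were at 1 RPKM or more in all 4 groups and none was at 0. At day 3 the sum was 310.6 to 736.2 in gWT, 5486 to 6721 in gKO, 783.1 to 1006 in cWT and 4866 to 5639 in cKO. Macrophage markers went the other way at day 0. Their sum over 10 genes was 21450 to 23827 in gWT and 7374 to 8348 in gKO, all 10 at 1 RPKM or more. Most of it came from Lyz2, at group means of 17900 in gWT and 7050 in gKO. At day 3 the order of this sum was the opposite, at 5634 to 5955 in gWT and 6460 to 7832 in gKO, but the single markers were split. Lyz2, again most of the sum (4400 and 5410), Csf1r, Cd68, Mertk and Itgam were higher in gKO. Adgre1, Fcgr1, Mrc1, C1qa (114 and 1.88) and C1qb were still lower there. In bulk RNA, more cells of a type and more RNA per cell cannot be told apart, and the part of neutrophil-lineage cells in the levels of Myb, Gfi1 and Cebpe was not tested.

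Genes that MYB is known to maintain in progenitors were mixed. Of 14 tested, 7 were higher and 7 lower in gKO BMMs (median 0.03, against 0.16), with the stem cell factor receptor gene Kit (3.40) and Prom1 (2.59) higher and the surface antigen gene Ly6a (-3.56) lower. In cKO BMMs 6 were higher and 6 lower (median -0.11, against 0.03). At day 3, 6 were higher and 6 lower in gKO (median -0.01), where the MYB-family cell cycle gene Mybl2 (-2.99) was lower while Myb itself was higher.

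The genotype difference in Myc turned with time in both pairs. In gWT it was 2.99, 3.29 and 3.24 RPKM at day 0, 54.2, 52.6 and 51.1 at day 3, and 10.5, 9.04 and 8.59 at day 6. In gKO it was 42.0, 43.3 and 41.5 at day 0, 7.75, 8.56 and 7.27 at day 3, and 15, 16 and 14.4 at day 6. The gWT cells thus rose to a day 3 peak from the lowest level of any group, whereas the gKO cells were highest at day 0 and lowest on the day when gWT stood highest.

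The gKO BMMs held 13.3-fold more Myc RNA than gWT BMMs (log2 3.37 ± 0.08, limma adjusted p = 1.30e-24). At day 3 they held 6.7-fold less (-2.60 ± 0.08, limma adjusted p = 1.42e-21), and at day 6 they were 1.61-fold higher (0.64 ± 0.08, limma adjusted p = 1.43e-07). The groups did not overlap on any of the 3 days. The turn between day 0 and day 3 was -5.97 ± 0.11 (limma adjusted p = 2.29e-26), and only 4 of the 11863 genes, 0.0337%, had a larger one. The turn back between day 3 and day 6 was 3.24.

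The c pair showed the same crossing at a smaller size. Myc was 13.1, 16.1 and 16 RPKM at day 0, 59.3, 49.5 and 53.7 at day 3, and 21.7, 20.8 and 19.5 at day 6 in cWT. It was 33.7, 33.7 and 33.9, then 11.6, 11.5 and 13.1, then 11.3, 14.8 and 13.2 in cKO. The cKO libraries lay above cWT at day 0 (2.24-fold, log2 1.12 ± 0.08) and below it at day 3 (4.48-fold, -2.07 ± 0.08) and day 6 (1.58-fold, -0.63 ± 0.08), with no overlap. The turn between day 0 and day 3 was -3.19 ± 0.11 (limma adjusted p = 2.01e-19). With the data set letter as a term the 3 changes were 1.0, -2.19 and -0.55 and stayed called. That term could be estimated only from the cWT libraries of day 6, where replicate 3 alone had the letter s. It therefore cannot separate data set from genotype on days 0 and 3.

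**Figure D3:**
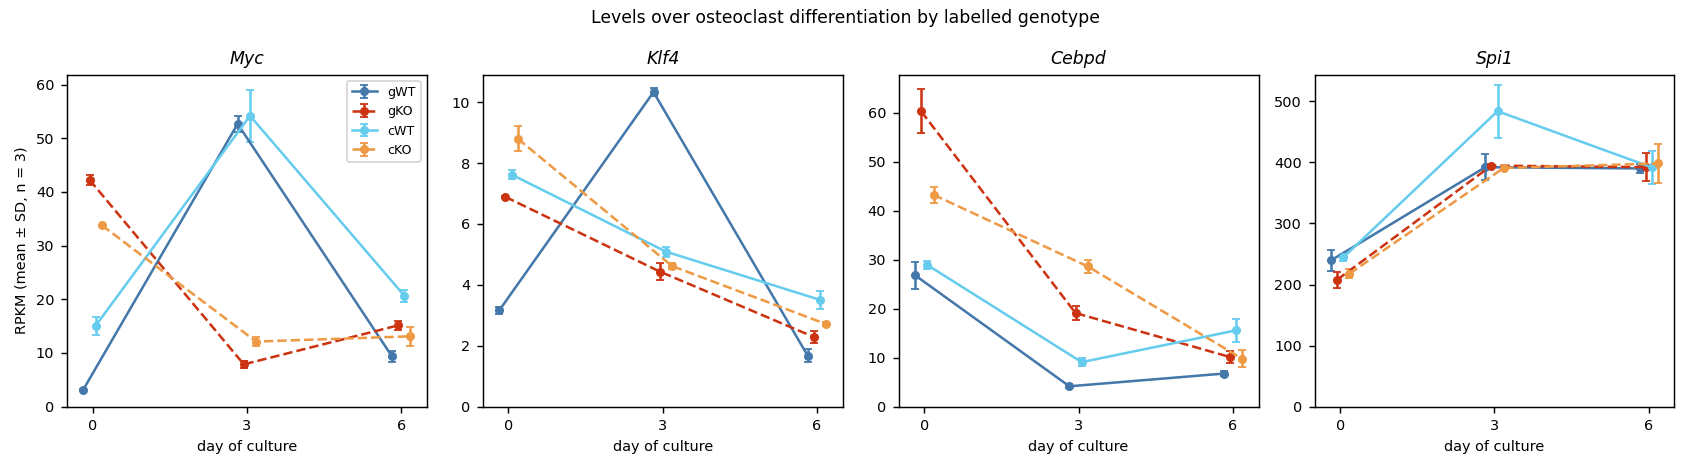
Mean RPKM ± SD of 3 libraries against day for Myc, Klf4, Cebpd and Spi1, with wild-type-labelled groups as solid and knockout-labelled groups as dashed lines. Myc peaks at day 3 in gWT (52.7) and cWT (54.2) and falls from day 0 in gKO and cKO, Klf4 peaks only in gWT (10.3), and Spi1 rises in all 4 genotypes.

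Genes that MYC is known to activate, most of them of ribosome building and nucleotide synthesis, turned in the same comparisons. The list also held Srm, Odc1, Cdk4, Ccnd2 and Hspd1. Of 40 such genes, 40 were higher in gKO BMMs (median 1.68, against 0.16 over all genes), 39 were lower and none higher at day 3 (-1.85, against -0.11), and 33 were higher and 1 lower at day 6 (0.50, against 0.00). In the c pair 37 were higher and none lower at day 0 (0.94, against 0.03), 1 was higher and 39 lower at day 3 (-1.30, against -0.07), and none was higher and 38 lower at day 6 (-0.44, against -0.11). The spermidine synthase gene Srm was 4.74 RPKM in gWT and 57.2 in gKO at day 0 (3.34), 108 and 16.8 at day 3 (-2.61), and 22.1 and 43.0 at day 6 (0.93). The box C/D snoRNP gene Nop58 (2.58, then -2.66) and the pseudouridine synthase gene Dkc1 (2.47, then -2.80) moved likewise between gKO and gWT on days 0 and 3. All 40 had a lower genotype difference at day 3 than at day 0 in the g pair (median -3.45, against -0.22) and in the c pair (median -2.19, against -0.09).

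**Figure D4:**
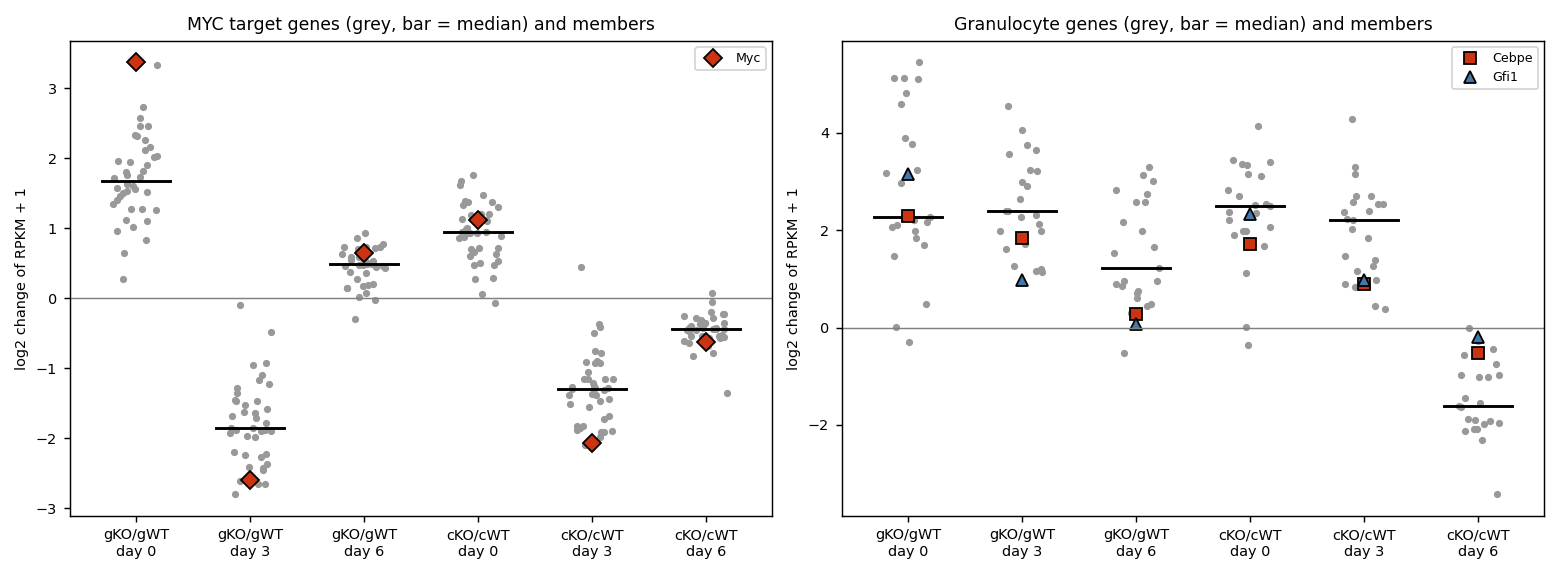
Log2 change of RPKM + 1 in the 6 comparisons of knockout-labelled with wild-type-labelled libraries, for 40 MYC target genes (left) and 23 granulocyte genes (right). Grey points are genes, bars are list medians and coloured symbols are Myc, Cebpe and Gfi1. The MYC target median moves from 1.68 to -1.85 to 0.50 over days 0, 3 and 6 in gKO, whereas the granulocyte median stays above 0 in gKO and falls to -1.61 in cKO at day 6.

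Partners and antagonists of MYC were split. Of 16 tested genes of the MYC and MAX network, 8 were higher and 4 lower in gKO BMMs (median 0.16, the same as over all genes), and 5 were higher and 8 lower at day 3 (-0.14, against -0.11). Mxd4, a MAX partner that opposes MYC, was 76.7 RPKM in gWT and 18 in gKO at day 0 (-2.03), and 6.03 and 22.7 at day 3 (1.75), the reverse of Myc on both days. Mycl, the L-MYC gene, was 15.3 RPKM in gWT and 1.19 in gKO at day 3 (-2.90). In the c pair Mxd4 was lower at day 0 (-1.91) and Mycl lower at day 3 (-2.62).

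Osteoclast markers differed at the day when Myc was lower. Their sum over 10 genes was 3700 to 5587 RPKM in gWT against 22982 to 24053 in gKO at day 3, and 5499 to 6869 in cWT and 17391 to 17659 in cKO, with all 10 at 1 RPKM or more. At day 6 it was 22823 to 23891 in gWT and 26594 to 27345 in gKO. The day 3 level of Myc in gKO (7.27 to 8.56 RPKM) lay just under that of gWT osteoclasts at day 6 (8.59 to 10.5), and the part of osteoclast maturation in the Myc difference was not tested.

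Among the C/EBP genes, Cebpa and Cebpb fell from day 0 to day 3 in all 4 genotypes, and Cebpd was higher in the knockout-labelled libraries at day 3 in both pairs. Cebpd, whose product is an early-response C/EBP factor, was 24.2, 29.6 and 26.7 RPKM in gWT and 57.0, 65.4 and 58.4 in gKO at day 0. At day 3 it was 3.84, 4.63 and 3.92 in gWT and 20.5, 19.1 and 17.7 in gKO, and at day 6 it was 6.45, 7.34 and 6.38 against 10.3, 11.1 and 8.89. All gKO libraries were above all gWT libraries on each day, by 2.25-fold (log2 1.14 ± 0.10), 4.62-fold (1.97 ± 0.10) and 1.5-fold (0.52 ± 0.10). The gKO difference grew by 0.83 ± 0.14 from day 0 to day 3 and shrank by 1.45 ± 0.14 from day 3 to day 6.

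In the c pair Cebpd was 28.0 to 29.8 RPKM in cWT and 41.3 to 44.3 in cKO at day 0 (0.56 ± 0.10), 8.23 to 9.87 and 27.2 to 29.98 at day 3 (1.56 ± 0.10), and 13.9 to 18.1 and 8.21 to 11.7 at day 6 (-0.63 ± 0.10). The order of the groups was therefore the opposite at day 6. With the data set letter as a term, which assumes that a data set shifts a gene alike on all days, the values were 0.89, 1.89 and -0.85.

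Cebpa, which starts the granulocyte and monocyte programme, was 166 to 176 RPKM in gWT against 127 to 142 in gKO at day 0, and the groups did not overlap. The difference of -0.35 ± 0.12 was called (limma adjusted p = 0.0117), but at -0.22 after quantile scaling it was not. At day 3 the difference of -0.26 ± 0.12 was not called (limma adjusted p = 0.0537) and would have been without gKO replicate 2 (-0.31), and at day 6 it was -0.50 ± 0.12, called. In the c pair it was -0.35 ± 0.12 at day 0, not called without cWT replicate 1 (-0.31) or with the data set term (-0.23). At day 3 the sign was the opposite, 0.42 ± 0.12, and the day 6 difference of 0.18 ± 0.12 was not called, except without cKO replicate 2 (0.46), the lowest of its group at 28.0 RPKM against 47.7 and 53.5.

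Cebpb, which serves inflammatory gene expression and is induced in macrophages, was 110 to 144 RPKM in gWT against 126.3 to 150.98 in gKO at day 0, and it was not called in the g pair on any of the 3 days (0.14, 0.15 and 0.20, each ± 0.13). After quantile scaling the day 0 and day 3 values were 0.27 and 0.32, and both were called. In the c pair Cebpb was 88.5 to 96.9 RPKM in cWT and 114 to 117 in cKO at day 0, and the call of 0.30 ± 0.13 was lost without any 1 of the 6 libraries, at 0.26 to 0.32, and with the data set term (0.39). At day 3 it was 23.7 to 32.5 in cWT and 56.3 to 61.6 in cKO, a difference of 1.10 ± 0.13 (limma adjusted p = 1.52e-08). At day 6 the difference was -0.36 ± 0.13, and 4 of the 6 leave-one-out values were not called, down to -0.18 without cKO replicate 2.

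The balance between Cebpa and Cebpe differed with genotype. Their RPKM ratio was 20.6 to 25.0 in the gWT libraries of day 0 and 3.23 to 3.56 in those of gKO, and 7.24 to 8.67 in cWT and 1.79 to 1.80 in cKO. The ratio was thus lower in every knockout-labelled library of that day, while the sum of the 4 C/EBP genes was 327.9 ± 19.4 RPKM (mean ± SD) in gWT and 369.7 ± 27.8 in gKO. At day 3 the ratio was 12.8 to 15.6 in gWT and 2.17 to 2.79 in gKO, and 5.20 to 6.59 in cWT and 3.58 to 3.96 in cKO. At day 6 it was 34.7 to 43 in gWT and 16.2 to 19.7 in gKO, and in the c pair the order was the opposite, at 24.5 to 31.6 in cWT and 35.2 to 99.4 in cKO. The summed level at day 3 was 90.2 ± 1.98 in gWT, with 114.1 ± 8.25 in gKO. In the c pair the sum also differed, at 254.7 ± 9.37 in cWT and 301.8 ± 7.84 in cKO at day 0. At day 3 it was 72.4 ± 6.98 in cWT and 139.9 ± 4.09 in cKO.

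Of 14 tested inflammatory genes that C/EBP factors regulate, 8 were higher and 5 lower in gKO BMMs (median 0.44, against 0.16), 9 were higher and 2 lower at day 3 (0.79), and 11 were higher and none lower at day 6 (0.50). The haptoglobin gene Hp was 2.88 RPKM in gWT and 128 in gKO at day 3 (5.11), and the lipocalin 2 gene Lcn2 was 28.8 and 343 (3.65). In cKO, 11 were higher and 3 lower at day 0 (median 1.0), 9 were higher and 2 lower at day 3 (0.56), and 1 was higher and 8 lower at day 6 (-0.40). Of 14 relatives and regulators of C/EBP, 4 were higher and 8 lower in gKO BMMs (-0.46), among them the circadian bZIP genes Dbp (-2.94) and Tef (-1.82).

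Klf4, a zinc finger gene of monocytes, peaked at day 3 in gWT and fell from day 0 in the other 3 genotypes. In gWT it was 3.29, 3.13 and 3.05 RPKM at day 0, 10.4, 10.4 and 10.2 at day 3, and 1.87, 1.68 and 1.45 at day 6. In gKO it was 6.85, 6.89 and 6.93, then 4.41, 4.72 and 4.18, then 2.09, 2.29 and 2.48. The gKO libraries were above gWT at day 0 (2.18-fold, log2 0.93 ± 0.05), below it at day 3 (2.33-fold, -1.06 ± 0.05) and above it at day 6 (1.37-fold, 0.30 ± 0.05), with no overlap on any day. The turn from day 0 to day 3 was -1.99 ± 0.07 (limma adjusted p = 2.46e-20) and that from day 3 to day 6 was 1.36.

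In cWT, Klf4 fell from 7.47 to 7.76 RPKM at day 0 to 4.90 to 5.20 at day 3, so the peak seen in gWT was not there. The cKO libraries, at 8.54 to 9.29 and 4.56 to 4.71, differed from cWT by 0.18 ± 0.05 at day 0 and -0.12 ± 0.05 at day 3. The day 3 call was lost without any 1 of 5 of the 6 libraries (-0.13 to -0.10) with a pseudocount of 0.1 (-0.14) and with the replicate block (-0.12), and with the data set term the value was 0.02. At day 6 the cKO libraries were lower by 0.28 ± 0.05. The gWT and cWT courses were not tested against each other.

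Of 19 genes of KLF4 and monocytes, 9 were higher and 8 lower in gKO BMMs (median 0.32, against 0.16) and 15 were higher and 3 lower at day 3 (1.37, against -0.11), the day when Klf4 was lower. The MD-1 gene Ly86, whose product partners a Toll-like receptor homologue, was 255 RPKM in gWT and 0.394 in gKO at day 0 (-7.52), while the monocyte antigen gene Ly6c2 was 106 and 1145 (3.43). In cKO, 10 were higher and 6 lower at day 0 (0.35) and 16 were higher and 2 lower at day 3 (1.89). Of 30 KLF and GFI1 relatives and cofactors, a list that holds Irf8, 14 were higher and 13 lower in gKO BMMs (0.12), with the inhibitor of DNA binding gene Id3 (-3.58) and the macrophage factor gene Maf (-1.61) lower.

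Spi1 rose from day 0 to day 3 in all 4 genotypes, and from day 3 to day 6 it fell in cWT (-0.30 ± 0.07) and was not called in the other 3. It was 221, 255 and 242 RPKM in gWT at day 0 and 369, 398 and 410 at day 3, and in gKO it was 195, 220 and 208, then 397, 392 and 396. The rise was 1.64-fold in gWT (log2 0.71 ± 0.07), 1.9-fold in gKO (0.93 ± 0.07), 1.98-fold in cWT (0.98 ± 0.07) and 1.8-fold in cKO (0.84 ± 0.07), with no overlap between days in any of them. At day 6 the group means were 390.3 in gWT, 392.4 in gKO, 391.9 in cWT and 398.3 in cKO.

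Genotype differences in Spi1 were small. In gKO BMMs it was lower by 0.20 ± 0.07 on the log2 scale (limma adjusted p = 0.00683), a call lost without gWT replicate 2 or gKO replicate 1 (-0.16 each) and after quantile scaling (-0.10). The gKO differences at days 3 and 6 were 0.01 ± 0.07 each and were not called. In cKO it was lower by 0.17 ± 0.07 at day 0, a call lost without cWT replicate 3 or cKO replicate 1 or 2 (-0.15 each), after quantile scaling (-0.02) and with the data set term. At day 3 it was 455 to 534 RPKM in cWT and 388 to 394 in cKO (-0.30 ± 0.07), but 0.07 after quantile scaling, and not called with the data set term (-0.14). The larger rise in gKO than in gWT, 0.21 ± 0.09 (limma adjusted p = 0.0378), was not called without any 1 of 8 of the 12 libraries, at values down to 0.17.

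Among 30 myeloid genes that PU.1 is known to regulate, 5 were higher and 21 lower in gKO BMMs (median -0.64, against 0.16), with the Fc receptor gene Fcgr1 (-4.40) and the M-CSF receptor gene Csf1r (-2.09) lower. At day 3, 19 were higher and 8 lower (0.26, against -0.11), with the osteoclast genes Acp5 (2.66) and Ctsk (2.33) higher, and at day 6, 4 were higher and 11 lower (-0.05). In cKO, 8 were higher and 17 lower at day 0 (-0.30) and 18 were higher and 5 lower at day 3 (0.24).

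Runx1 fell from day 0 to day 3 in all 4 genotypes, by 0.35 in gWT, 1.07 in gKO, 0.68 in cWT and 0.57 in cKO, each ± 0.08. It was 12.2, 10.1 and 11.1 RPKM in gWT and 13.8, 11.6 and 13.7 in gKO at day 0, and these groups overlapped. The difference of 0.21 ± 0.08 (limma adjusted p = 0.0148) was not called without gWT replicate 2 (0.15), gKO replicate 1 (0.17) or gKO replicate 3 (0.18), nor after quantile scaling (0.01). At day 3 Runx1 was 8.21 to 8.98 RPKM in gWT against 5.59 to 5.77 in gKO, lower in gKO by 0.51 ± 0.08 with no overlap. In cKO the day 3 difference of 0.17 ± 0.08 was not called without cWT replicate 1 (0.08) or any 1 of the 3 cKO libraries (0.16 to 0.18), and it was -0.04 with the data set term. Of 23 RUNX and ETS family genes and cofactors, 12 were higher and 5 lower in gKO BMMs (0.21, against 0.16), including Ets1 (2.17) and Runx3 (1.88), and 5 were higher and 12 lower at day 3 (-0.21).

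Within genotypes, most members fell with differentiation, as did most called genes of the whole table in several of these steps. From day 0 to day 3, 3 rose and 7 fell in gWT (83.4% of all genes called), 1 rose and 9 fell in gKO (82.5%), 2 rose and 8 fell in cWT (78.7%), and 1 rose and 9 fell in cKO (80.5%). Over all genes, 5741 rose and 4150 fell in gWT, and 3393 rose and 6394 fell in gKO. The counts were 4724 and 4618 in cWT, and 3587 and 5958 in cKO. Spi1 rose in all 4, Myc in gWT (3.69 ± 0.08) and cWT (1.78 ± 0.08), and Klf4 in gWT (1.45 ± 0.05). Cebpa fell by 2.44 in gWT, 2.35 in gKO, 1.90 in cWT and 1.13 in cKO, each ± 0.12. Myc fell by 2.29 in gKO and by 1.41 in cKO. The fall of Myb was 3.96 in gKO and 3.05 in cKO, against 1.49 in gWT and 1.79 in cWT.

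From day 3 to day 6, 1 member rose and 8 fell in gWT (75.6% of all genes called), 1 rose and 8 fell in gKO (59.3%), 2 rose and 6 fell in cWT (71.2%), and none rose and 7 fell in cKO (57.1%). Over all genes, 3285 rose and 5680 fell in gWT, and 3084 rose and 3948 fell in gKO. The counts were 3377 and 5075 in cWT, and 2418 and 4350 in cKO. In cKO the data set letter went from t to s in this step, so day and data set cannot be told apart there. In cWT it went from s at day 3 to t for replicates 1 and 2 of day 6. Myc fell in gWT (-2.38 ± 0.08) and cWT (-1.35 ± 0.08), rose in gKO (0.86 ± 0.08) and was not called in cKO (0.10 ± 0.08), except without cKO day 6 replicate 1 (0.19). Klf4 fell by 2.09 in gWT, a change exceeded by 1.63% of all genes. Cebpd rose in gWT (0.59 ± 0.10) and cWT (0.71 ± 0.10) and fell in gKO (-0.86 ± 0.10) and cKO (-1.47 ± 0.10). Cebpe fell by 2.52 in gKO and by 2.84 in cKO, exceeded by 0.244% and 0.354% of genes. Some calls of this step rested on single libraries. That of Runx1 was lost in gKO without day 6 replicate 2 (-0.20) and in cKO without day 3 replicate 2 (-0.20) or day 6 replicate 2 (-0.15). That of Cebpa in gWT was lost without day 3 replicate 2 or day 6 replicate 1 (-0.31 each), and Cebpa in cKO was called only without day 6 replicate 2 (0.28).

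At day 6 several members that had been higher in cKO were lower there. Cebpb, Cebpd, Cebpe, Gfi1, Klf4, Myb and Myc were lower in the libraries labelled cKO. Of these, Myc had already been lower at day 3 (-2.07). Klf4 was lower by only 0.12 on that day, a call lost in 5 of 6 leave-one-out fits. Irf8 was lower there too, and C1qa, a macrophage complement gene named after its values were seen, also changed order, at 34.6 RPKM in cWT and 8.31 in cKO at day 3 and 6.7 and 104 at day 6. The file header records that these day 6 labels were corrected, and if they were exchanged every day 6 direction given here for the c pair would turn. Cebpe was 1.19 to 1.57 RPKM in cWT and 0.48 to 0.796 in cKO (-0.51 ± 0.09), and Myb was 0.228 to 0.389 and 0.0321 to 0.087 (-0.28 ± 0.08), all low levels. The granulocyte genes turned likewise, with none higher and 22 lower of 23 in cKO (median -1.61, against -0.11). Within the data set s, the single cWT library lay above all 3 cKO libraries for each of these 7 members, for example for Myc at 19.5 RPKM against 11.3 to 14.8. It lay inside the cKO range for Spi1, Cebpa and Runx1. After quantile scaling Cebpb (-0.28), Gfi1 (-0.11), Klf4 (-0.10) and Myb (-0.16) were not called, and with the data set term Cebpb (-0.42) and Myb (-0.23) were not. Other marker sums differed on this day, with neutrophil markers at 725.9 to 942.1 RPKM in cWT and 155.9 to 212.1 in cKO, and osteoclast markers at 16082 to 18178 and 25472 to 26098. Stromal markers also differed, with a sum over 18 genes of 441.4 to 616 RPKM in cWT and 200.9 to 254.5 in cKO, 14 of 18 at 1 RPKM or more in each group and Lum at 0 in cWT. The part of any of these cells in the differences was not tested.

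Other cell types were low in these cultures. Summed marker levels were at most 47.1 RPKM for B cells (9 of 10 genes listed), 16.5 for T and NK cells (10 of 11 listed) and 31.1 for mast cells and basophils, in the highest group mean, where Gzma was at 0 in the T and NK list and Tpsb2, Tpsab1, Cma1 and Fcer1a in the mast cell list. Dendritic cell markers reached 461.6 in gWT BMMs, of which Bst2 gave 445, and erythroid and megakaryocyte markers 1286 in cWT BMMs, of which the platelet factor 4 gene Pf4 gave 1270, while Hba-a1 stayed under 1 RPKM in every group mean. The part of these in the members' levels was not tested.

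Genes with the most similar pattern were sought over the 12 group means of log2(RPKM + 1), which share data sets and a common time course, so the correlations are descriptions. Gfi1 and Myb followed each other most closely among the members (r = 1.0), followed by Cebpe with Myb (0.94) and Cebpe with Gfi1 (0.93). Outside the members, Gfi1 was closest to the zinc finger gene Casz1 (0.997) and the granule protease gene Prss57 (0.995), Myb to BC035044 (0.997) and the leukotriene A4 hydrolase gene Lta4h (0.995), and Cebpe to the sphingosine phosphate receptor gene S1pr4 (0.985) and Prtn3 (0.981). Myc was closest to the purine synthesis gene Atic (0.993) and the snoRNP assembly gene Shq1 (0.989). Cebpd was closest to Arid3a (0.979) and Klf2 (0.967), Spi1 to the nuclear receptor gene Nr2f6 (0.986) and the proteasome gene Psmd10 (0.984), Cebpa to Hspa2 (0.978) and B3gnt8 (0.975), Cebpb to Pacs1 (0.972) and Ap1s2 (0.971), and Runx1 to Celf2 (0.972) and Ggta1 (0.969). Klf4 had the weakest matches, Gtf3c2 (0.934) and the histone gene H2afx (0.930). Spi1 ran opposite to Cebpa (-0.89), Cebpb (-0.90) and Runx1 (-0.89), and Myc correlated with no member above 0.63, its value with Klf4.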

How the data were processed

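Per the file headers, the authors combined 3 data sets, corrected which day 6 libraries were cKO and which cWT, mapped reads to mm9 with TopHat and computed the deposited RPKM values in Partek. The submitters' processing notes also name TopHat2 2.1.0, bcl2fastq 2.17.1, CASAVA 1.8.4 and deepTools. No source used here gives the counting settings, strand or gene models, read counts were not used, and the error of low RPKM values is unknown. Single-library columns were matched to samples by the deposited sample sheet, and the authors' tables of comparisons were not used.

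RPKM values were used without further scaling as log2(RPKM + 1), for 11863 of 24950 genes with at least 1 RPKM in at least 3 libraries. A limma model (version 3.58.1, R 4.3.3, trend and robust moderation) of 12 group means over 36 libraries gave 17 contrasts, adjusted over all genes by Benjamini-Hochberg and called under 0.05. It was tested on simulated data first. The alternatives were a pseudocount of 0.1, no filter and a filter at 5 RPKM, quantile scaling, no moderation by trend, only the groups of a contrast, the replicate number as a block, the data set letter as a term, and each library left out in turn. The data set term rests on the cWT libraries of day 6, the only group with both the letters s and t. Figures were drawn with matplotlib 3.10.9, and tables were made with numpy 2.4.6 and pandas 2.3.3 under Python 3.11.15.

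The members, the 10 lists of related genes and the 9 lists of cell markers were chosen with earlier results of these data known. All members are named. From each list at most 4 genes were eligible to be named, those with the largest change among genes of at least 5 RPKM in either group, and genes of like pattern are the 2 of highest r per member. Promoter windows came from RefSeq on GRCm38.p6.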

Additional observations from a re-analysis of the deposited data

Results flagged for a closer look

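Members were singled out here because the difference between knockout-labelled and wild-type-labelled libraries changed between 2 days, by limma's test of the difference of differences on the log2 scale, adjusted over all genes. Most of the 11863 tested genes met the same test.

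From day 0 to day 3 in the g pair, Myc moved most, by -5.97, followed by Myb (-2.47), Gfi1 (-2.16) and Klf4 (-1.99). Runx1 (-0.72) and Cebpe (-0.45) moved in the same direction, and Cebpd (0.83) and Spi1 (0.21) in the other, where the values for Spi1 and Cebpe were not called under some of the alternatives. From day 3 to day 6 in the g pair, Myc (3.24), Klf4 (1.36) and Runx1 (0.39) moved back up, and Cebpe (-1.58), Cebpd (-1.45), Myb (-1.33) and Gfi1 (-0.91) moved down.

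In the c pair from day 0 to day 3, Myc (-3.19), Gfi1 (-1.35), Myb (-1.27), Cebpe (-0.83) and Klf4 (-0.30) moved down, and Cebpd (0.99), Cebpb (0.80) and Cebpa (0.77) moved up. Within each genotype the data set letter is the same on both days. A data set shift that is alike on both days would therefore cancel out of these 8 values. No group of those days holds both letters, so whether the shift was alike was not tested.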

How the results depend on the processing

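Over 10 members and 17 contrasts, every one of the 170 results kept its side of the threshold with a filter at 5 RPKM and without trend and robust moderation. The others kept 166 of 170 (no filter and pseudocount of 0.1), 165 (only the groups of the contrast), 149 (quantile scaling), 69 of 80 c results (data set as a term) and 1155 of 1200 (1 library left out, where only values not called changed sign, for example Spi1 in cKO against cWT at day 6, at -0.04 to 0.08). Of called results, direction changed for Spi1 in cKO against cWT at day 3 (0.07) and in cWT from day 3 to day 6 (0.02) after quantile scaling, and for Klf4 (0.02) and Runx1 (-0.04) in cKO against cWT at day 3 with the data set term. The cause was not tested. The number of genes called for cKO against cWT was 8063 at day 0 and 5112 with the data set term, and at day 6 it was 6357, 4075 with the data set term and 4165 with only these 2 groups, where fewer samples estimate the spread. For cKO from day 3 to day 6, a step in which day and data set changed together, it was 6768, and 2818 with the data set term.

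With the replicate number as a replicate block, 1 of the 170 results changed, Klf4 in cKO against cWT at day 3 (-0.12), and gKO against gWT at day 0 gave 9324 genes in place of 9344. Same-numbered libraries had all 3 correlations of their deviations over 0.1 in only 2 of 14 pairs of groups (range -0.47 to 0.47). So few libraries cannot show whether the numbers pair the samples, and the labels do not say.

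Under quantile scaling the median over all genes went from 0.16 to 0.03 (gKO against gWT, day 0), -0.11 to 0.01 (cKO against cWT, day 6), 0.13 to 0.02 (gWT, day 0 to 3), -0.14 to 0.01 (gWT, day 3 to 6), -0.23 to -0.10 (gKO, day 0 to 3) and -0.22 to 0.03 (g difference, day 0 to 3). The share of called genes that were higher went from 24.7% to 52.1% (cKO against cWT, day 6), 36.6% to 50.4% (gWT, day 3 to 6), 43.9% to 55.0% (gKO, day 3 to 6), 35.7% to 54.6% (cKO, day 3 to 6) and 39.5% to 51.3% (g difference, day 0 to 3).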
